A study of Homo sapiens with 6 samples.

Results

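The BCL2 family genes described here are MCL1, BCL2 and BCL2L2, which protect cells from death, the BH3-only genes BCL2L11, BBC3, PMAIP1, BMF and BIK, the effector relative BOK, and BNIP3L. They were chosen by name, with BAK1, BAX and the gene of BCL-XL set aside, and all 10 were found among the 60708 genes counted. They are not the whole of the remaining family, and other family genes, among them BAD and BID, are described further on. The libraries came from MDA-MB-231, an established human triple-negative breast cancer cell line, harvested 18 hours after transfection with 25 nM of either a miR-99b-5p mimic (a synthetic copy of the microRNA) or a scrambled negative control. An antibody to AGO2 drew the protein out with its bound RNA (AGO2-IP), and the RNA that stayed in the lysate was the flow-through. Mimic cells gave 2 libraries of each fraction and control cells 1 of each, 6 in all. Which control library is which fraction was read from the sample titles, because the study's own sample list calls them control replicates without a fraction. Every culture was transfected, and an IgG pull-down was not analysed here. In such bulk libraries, fewer cells of a kind and less RNA per cell cannot be told apart.

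BCL2 family proteins meet at the outer mitochondrial membrane. The anti-apoptotic members hold the pore-forming members BAX and BAK in check, and BH3-only proteins bind the anti-apoptotic members through a short helix, the BH3 domain, and free the pore formers. In breast cancer cells the balance between MCL1, the BCL2 proteins and BH3-only proteins such as BIM sets how readily a cell dies after stress or death-receptor signals. Many of these mRNAs are short-lived and are known to be regulated by microRNAs, which guide AGO2 to a target through the seed, bases 2 to 8 of the mature microRNA.

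The mature microRNA is shown because the sites in MCL1 and BMF are read against its seed, which stands in capitals. Its 22 nucleotides lie at 51692618 to 51692639 of chromosome 19, plus strand (RefSeq, GRCh38.p14).
hsa-miR-99b-5p: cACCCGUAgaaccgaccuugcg
A transcript pairs with bases 2 to 7 of this microRNA where it carries ACGGGT (6mer), and with bases 2 to 8 where it carries TACGGGT (7mer-m8) or TACGGGTA (8mer). The motif ACGGGTA (7mer-A1) pairs with bases 2 to 7 and adds an A opposite base 1, a C that does not pair with it. These letters were searched on the transcript strand only, and the longer motifs contain the shortest. In the canonical transcripts of GENCODE release 44, 2 of the 10 members held ACGGGT, MCL1 and BMF, while 14.9% of 20046 protein-coding transcripts of any length did. The 7mer-A1 occurred in MCL1, against 2.65% of all protein-coding transcripts. The 7mer-m8 and the 8mer occurred in none of the members, against 2.68% and 0.519% of all.

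MCL1 (ENSG00000143384.14, minus strand of chromosome 1 from 150560895 to 150579738, GRCh38 as for all positions here) held 3 matches in its coding sequence and none in its 3′ untranslated region of 2817 nucleotides. At least 3 matches were present in 0.304% of the protein-coding transcripts. The 3 stretches lie in exon 1 of 3, at chr1:150579137-150579166, chr1:150579047-150579076 and chr1:150578875-150578904 (GRCh38, minus strand), and capitals mark the match.
MCL1 site 1: ccgaagaggagctggACGGGTAcgagccgg
MCL1 site 2: ataacaccagtacggACGGGTcactaccct
MCL1 site 3: gctggagaccttacgACGGGTtggggatgg
BMF (ENSG00000104081.14, minus strand of chromosome 15 from 40087890 to 40108892) held 1 match in its 3′ untranslated region of 3897 nucleotides, in exon 5 of 5 at chr15:40089901-40089930.
BMF site: ttgtctgctaagaagACGGGTtcctgcttt
These matches are letters in the transcript and not measured binding sites. Counted over all annotated transcripts, ACGGGT was present in 7 of the 8 of MCL1 but in only 2 of the 10 of BMF. Outside the canonical transcripts, 1 of the 7 annotated transcripts of BNIP3L also held ACGGGT, and no annotated transcript of BCL2, BCL2L2, BCL2L11, BBC3, PMAIP1, BIK or BOK did.

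**Figure D1:**
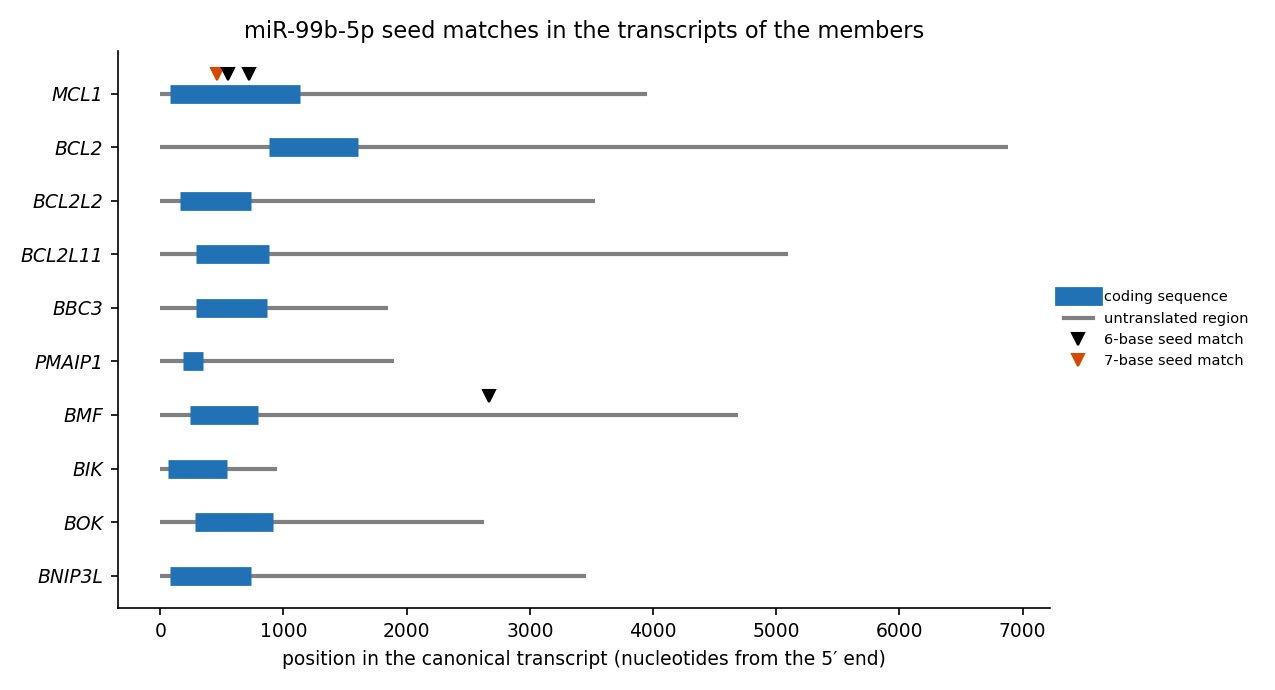
Canonical transcripts of the 10 members drawn to scale from the 5′ end in nucleotides, with the coding sequence as a thick bar, the untranslated regions as a thin line and seed matches as triangles. The 3 matches of MCL1 lie in its coding sequence and the match of BMF lies in its 3′ untranslated region.

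Read pairs on genes numbered between 7772149 in the control flow-through and 48544756 in the second mimic flow-through (the gene counts). The control libraries stood apart from the mimic libraries. Read pairs on several places made up 73.7% and 76.7% of their pairs, against 2.38% to 19.2% in the mimic libraries, and the mitochondrial genome gave 43.4% of gene counts in the flow-through of control cells, 3.48% in their AGO2-IP and at most 0.125% in any mimic library. The mimic and this difference in composition cannot be told apart in any comparison of mimic with control. The labelled cell line was checked by its markers. VIM had 129 to 594 CPM (a gene's count scaled by the gene counts of its library), CD44 59.0 to 478, ZEB1 10.7 to 98.3 and FOSL1 205 to 1051, whereas EPCAM had 2.80 to 11.8, ESR1 and PGR had at most 0.991 CPM in any library and CDH1 at most 3.96.

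Per kilobase of exon not shared with another gene, MCL1 was the most abundant member in the mimic AGO2-IP, with 179 ± 21.4 CPM per kilobase (SD, n = 2). PMAIP1 followed with 110.3 ± 51.0 and BNIP3L with 40.3 ± 8.72 in the same libraries. BCL2L2 had 18.2 ± 3.42, BBC3 10.4 ± 1.56 and BOK 8.13 ± 1.59, and these did not overlap one another. BCL2L11, at 18.6 ± 13.8, has no settled place, since its 8.86 and 28.4 in the single libraries overlapped all of these. BMF, BCL2 and BIK came last, from 3.97 ± 0.373 down to 0.412 ± 0.200, each separate from the next. In the mimic flow-through the order was less settled, since PMAIP1 (48.1 ± 18.6), MCL1 (46.1 ± 11.4), BNIP3L (37.3 ± 35.6) and BOK (35.6 ± 25.9) all overlapped. BCL2L2 (12.5 ± 1.07) overlapped BNIP3L and lay below MCL1, PMAIP1 and BOK. BBC3 (4.52 ± 2.04) was below BCL2L2 in both libraries. BCL2L11 (2.04 ± 0.815) overlapped BCL2 (1.89 ± 0.248) and BIK (0.960 ± 0.756), and BIK overlapped BMF (0.873 ± 0.358), which had the lowest mean.

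**Figure D2:**
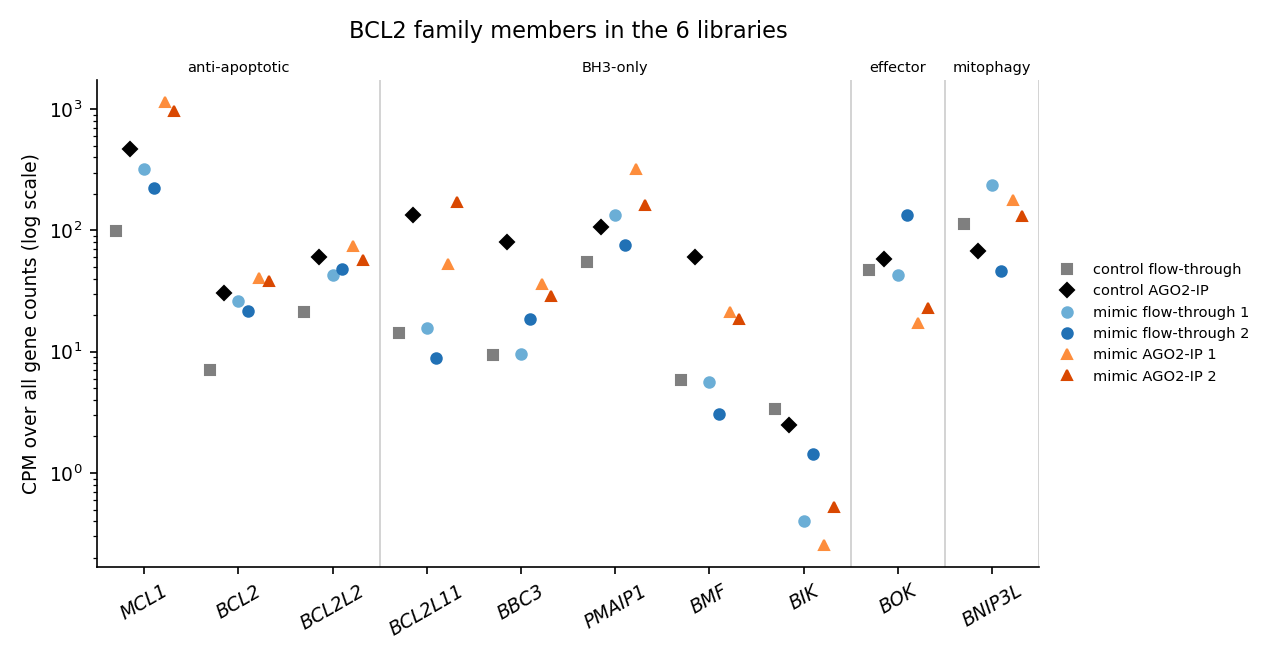
CPM of each member in each of the 6 libraries on a log axis, 1 point per library, ordered by class. MCL1 is the highest member in every library but the control flow-through, where BNIP3L has 112 CPM and MCL1 99.7, and BIK is the lowest in every library.

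The mimic AGO2-IP was compared with the mimic flow-through by edgeR's quasi-likelihood test over the 13078 genes that reached 200 counts in sum. A call needed an absolute log2 fold change of 1 or more together with an adjusted p of 0.05 or less. MCL1, BCL2L11 and BMF had the clearest positive values, and BOK the clearest negative one. Of the 10 members 9 were tested, and BIK had too few counts. No member was called enriched, where 0.245% of all genes were, and none was called depleted, where 0.413% were. Of the 9, 4 had an unadjusted p under 0.05 (MCL1, BCL2L11, BMF and BOK), as did 23.8% of all genes. In mimic cells both AGO2-IP libraries lay above both flow-through libraries for 6 members, against 28.1% of all genes, and below both for 1, against 28.5%. The median log2 fold change of the 9 was 1.07 and that of all genes -0.11.

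The calls depended on how replicates were treated, on the package used and on the libraries kept. With the replicate number as a block the same test called MCL1, BCL2L11 and BMF enriched and no member depleted, where it called 4.6% of all genes enriched and 5.08% depleted. PyDESeq2, the package named in the study's methods, called the same 3 members enriched, where it called 6.46% of all genes, and BOK depleted, where it called 8.24%. The study describes enrichment over control AGO2-IP and names another version of the package, so its own comparison is not repeated here. Without the first flow-through library, edgeR called 20.2% of all genes enriched and 20.6% depleted. In that fit 4 members were called enriched, MCL1 (adjusted p = 0.0149), BCL2L11 (adjusted p = 0.00535), BMF (adjusted p = 0.0116) and BNIP3L (adjusted p = 0.0435), and BOK depleted (adjusted p = 0.00104 from edgeR's test). Wherever a library is left out, the lone library of that fraction is assumed to vary like the pair of the other.

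Among the anti-apoptotic members, MCL1, a short-lived guard of mitochondria on which many breast cancer cells depend, had 1144 and 966 CPM in the AGO2-IP of mimic cells, where the flow-through had 319.6 and 224. Control cells had 471 CPM in the AGO2-IP but 99.7 outside it. In mimic cells the AGO2-IP libraries lay above the flow-through libraries with no overlap. The 1 control AGO2-IP library was also above the 1 control flow-through library. Its fitted log2 fold change in mimic cells was 1.94 (SE 0.580, adjusted p = 0.0979 from edgeR's test, 0.0439 with the replicate block and 0.0136 with PyDESeq2). The 4 library pairs (either AGO2-IP with either flow-through) gave close values, from 1.84 to 2.04 (log2). MCL1 shares 5.3% of its exonic bases with ADAMTSL4 and its antisense gene.

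BCL2 (ENSG00000171791.14, minus strand of chromosome 18 from 63123346 to 63320128) encodes the founding anti-apoptotic protein of the family. In mimic cells it had 40.3 and 38.2 CPM in the AGO2-IP with 26.1 and 21.7 in the flow-through, and in control cells 30.7 and 7.08. The AGO2-IP was above the flow-through in each case. Its log2 fold change was 0.68 (SE 0.613, adjusted p = 0.513 from edgeR's test).

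BCL2L2 (ENSG00000129473.11, plus strand of chromosome 14 from 23298790 to 23311751) encodes BCL-w, an anti-apoptotic relative of BCL2. Mimic cells had 74.9 and 57.3 CPM in the AGO2-IP and 42.6 and 48.1 outside it. After normalization the second AGO2-IP and the second flow-through library were level, and the fitted value was 0.47 (log2, SE 0.601, adjusted p = 0.657 from edgeR's test). Control cells had 60.2 CPM in the AGO2-IP and 21.2 outside it, and after normalization the control log2 ratio of BCL2L2 was 0.61. Its counts leave out part of the gene, since 24.8% of its exonic bases are shared with other genes, among them the readthrough gene BCL2L2-PABPN1 on the same strand.

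Among the BH3-only members, BCL2L11 (ENSG00000153094.24 in the files, plus strand of chromosome 2 from 111119378 to 111168444) encodes BIM, which binds every anti-apoptotic member. In mimic cells it had 53.3 and 170.8 CPM in the AGO2-IP against 15.7 and 8.82 in the flow-through, and in control cells 135 against 14.2. The AGO2-IP libraries were above the flow-through throughout, and the first mimic AGO2-IP library was low beside the second. The log2 fold change of 3.22 was the largest among the members (SE 0.745, adjusted p = 0.0625 from edgeR's test, 0.00727 with the replicate block and 0.000393 with PyDESeq2). The 4 library pairs ran from 1.93 to 4.02, and without the second AGO2-IP library the fitted value was 2.06 (adjusted p = 0.774 from edgeR's test). Of its exonic bases 10.8% are shared with MIR4435-2HG on the opposite strand, and the counts used here lose reads on such bases.

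BMF encodes a BH3-only protein that is held on the cytoskeleton until cells are stressed. In mimic cells it had 21.1 and 18.5 CPM in the AGO2-IP and 5.62 and 3.09 in the flow-through, and in control cells 60.9 and 5.79. The mimic fractions did not overlap, and the control AGO2-IP was the highest library. Its log2 fold change was 2.20 (SE 0.705, adjusted p = 0.114 from edgeR's test, 0.0413 with the replicate block and 0.00981 with PyDESeq2), with library pairs from 1.95 to 2.44.

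BBC3 (ENSG00000105327.18, minus strand of chromosome 19 from 47220822 to 47232766) encodes PUMA, a BH3-only protein induced by cell stress. In mimic cells it had 35.8 and 29.0 CPM in the AGO2-IP with 9.58 and 18.5 outside it, and in control cells 80.7 and 9.39. The mimic fractions did not overlap, but the second flow-through library was closer to the AGO2-IP than the first. The fit gave 1.07 (log2, SE 0.703, adjusted p = 0.366 from edgeR's test), and the value ran from 0.48 without the first flow-through library to 1.93 without the second.

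PMAIP1 (ENSG00000141682.12, plus strand of chromosome 18 from 59899996 to 59904305) encodes NOXA, a BH3-only protein that acts mainly on MCL1. In mimic cells it had 319.9 and 162 CPM in the AGO2-IP with 134 and 76.5 outside it, and in control cells 106 and 54.4. The fractions of mimic cells did not overlap. The fitted log2 fold change was 1.20 (SE 0.614, adjusted p = 0.256 from edgeR's test). Its control log2 ratio was 0.07, and 0.67 with the GC trend removed, below those of the other tested BH3-only members.

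BIK (ENSG00000100290.3, plus strand of chromosome 22 from 43110750 to 43129712), a BH3-only protein of the endoplasmic reticulum, was barely counted. Mimic cells gave 12 and 20 counts in the AGO2-IP and 19 and 69 outside it, and control cells 20 and 26. With a minimum of 10 counts its log2 fold change was -0.91 (SE 0.967, adjusted p = 0.69 from edgeR's test), and a difference was not detectable at this depth.

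BOK (ENSG00000176720.6, plus strand of chromosome 2 from 241551424 to 241574131) is an effector relative of BAX and BAK whose protein is controlled by its turnover. Mimic cells had 17.4 and 22.9 CPM in the AGO2-IP and 42.7 and 134 outside it. It was the 1 tested member with both AGO2-IP libraries below both flow-through libraries. The fitted value was -2.31 (log2, SE 0.765, adjusted p = 0.118 from edgeR's test, 0.0775 with the replicate block and 0.0235 with PyDESeq2). Its size rested on the second flow-through library, since the value was -0.90 without it. Control cells had 58.0 CPM in the AGO2-IP and 47.6 outside it, scaled by gene counts that include the mitochondrial genome. After normalization the control log2 ratio of BOK was -0.61, so the AGO2-IP was below the flow-through.

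BNIP3L (ENSG00000104765.16, plus strand of chromosome 8 from 26383054 to 26505636) encodes NIX, a receptor that marks mitochondria for autophagy and carries a BH3-like stretch. In mimic cells its 177 and 130.3 CPM in the AGO2-IP lay between the 239 and 46.3 CPM of the flow-through. The fit gave 0.22 (log2, SE 0.693, adjusted p = 0.868 from edgeR's test), and its sign turned with the library left out, from -0.46 without the second flow-through library to 1.40 without the first. In control cells the AGO2-IP, at 68.1 CPM, was below the flow-through, at 112 CPM.

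**Figure D3:**
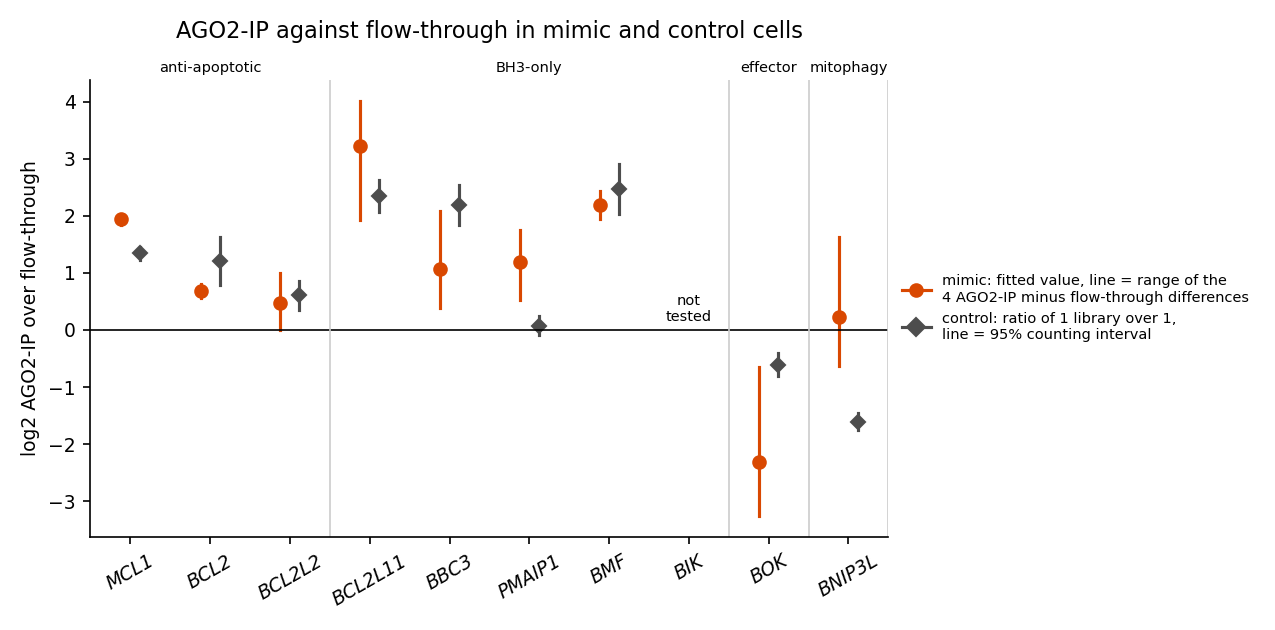
Log2 ratio of AGO2-IP over flow-through for each member, with the fitted value in mimic cells (circles, line from the lowest to the highest of the 4 single differences) and the ratio of 1 control library over the other (diamonds, line for the 95% counting interval). MCL1, BCL2, BCL2L11, BBC3 and BMF lie above 0 in both kinds of cells and BOK below 0 in both, although the control value of BOK was 0.28 with library size alone. In mimic cells the line of BNIP3L crosses 0 and that of BCL2L2 reaches down to -0.002.

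Anti-apoptotic and BH3-only members overlapped in this comparison. The 3 anti-apoptotic members had a median log2 fold change of 0.68 and the 4 tested BH3-only members one of 1.70, a difference of -1.01, beside a median of -0.11 over all genes tested. In the single library pairs this difference ran from -1.43 to -1.01. The classes were not separate, because MCL1 (1.94) lay above BBC3 (1.07) and PMAIP1 (1.20). In the control pair the medians were 1.21 for the anti-apoptotic and 2.27 for the BH3-only members, a difference of -1.07, beside 0.01 over all 8245 genes with 200 counts. In mimic over control the difference had the other sign. In the AGO2-IP the medians were 0.49 and -0.78, a difference of 1.27, beside 0.02 over all genes. In the flow-through they were 0.95 and -0.35, a difference of 1.30, beside 0.05. With the GC trend removed, the BH3-only median in the AGO2-IP was -0.32 and the difference there was 0.81, while that in the flow-through was 1.59. No test is given for these medians, since the genes were chosen with earlier results known and are not replicates.

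Control cells had 1 library per fraction and therefore no replicate check. BMF, BCL2L11 and BBC3 had the highest ratios of AGO2-IP over flow-through there and BNIP3L the lowest. Of the 9 members with enough counts, 5 reached a log2 ratio of 1 or more, as did 15.9% of all genes, and 1 lay at -1 or less, as did 18.1%. The ratio was 2.47 for BMF (95% counting interval 2.03 to 2.91), 2.35 for BCL2L11 (2.07 to 2.63) and 2.19 for BBC3 (1.84 to 2.54). MCL1 had 1.35 (1.23 to 1.46), BCL2 1.21 (0.78 to 1.63) and BCL2L2 0.61 (0.35 to 0.86). PMAIP1 had 0.07 (-0.09 to 0.24), BOK -0.61 (-0.80 to -0.41) and BNIP3L -1.61 (-1.76 to -1.45). These intervals cover counting error only. Without the GC trend, the ratio was 2.39 for BMF, 2.41 for BCL2L11, 2.31 for BBC3, 0.67 for PMAIP1, 1.42 for MCL1, 1.30 for BCL2 and 0.46 for BCL2L2. BOK then had -0.52 and BNIP3L -1.09, and the median of all genes was 0.12. Scaled by library size alone, the median of all genes moved from 0.01 to 0.89, and BOK then stood at 0.28 and BNIP3L at -0.72. With the mitochondrially encoded genes left out as well, a choice made after the data were seen, the median was 0.13, and BOK and BNIP3L had -0.49 and -1.49.

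The distance between replicates differed from member to member. Between the mimic flow-through libraries, second minus first, the log2 difference was 2.14 for BOK and 1.44 for BBC3, whose transcripts have 66.0% and 69.7% GC. It was -1.87 for BNIP3L, at 37.4% GC, and -0.02 for MCL1, at 45.1%. Over the 9 tested members Spearman's rho of this difference with GC content was 0.567, and over 11747 protein-coding genes tested it was 0.755, where genes of the same libraries are not independent. Between the mimic AGO2-IP libraries the difference lay between -0.92 (PMAIP1) and 1.74 (BCL2L11). The part of GC content in the results of the members was not tested beyond the correction that follows.

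Taking out each library's dependence on GC content (the GC trend) moved several members. The log2 fold change of BBC3 was then 2.82 (SE 0.484, adjusted p = 0.0339 from edgeR's test) and that of BCL2L11 2.92 (SE 0.618, adjusted p = 0.0469 from edgeR's test). Both were called enriched, where 2.94% of all genes were, and no member depleted, where 1.66% were. MCL1 had 1.59 (adjusted p = 0.0533 from edgeR's test) and BMF 2.59 (adjusted p = 0.0508 from edgeR's test), on the other side of the threshold. PMAIP1 moved to 0.20, BOK to -0.56 and BNIP3L to -0.39. Among the genes tested, BBC3 lay at percentile 99.6 of GC content and BOK at 97.5, but PMAIP1 at 4.58 and BNIP3L at 6.92. These members are near the ends of the range over which the trend was fitted, whereas BCL2L11 lay at percentile 41.2. With the GC trend removed and the replicate block together, MCL1, BCL2L11, BBC3 and BMF were called enriched, where 13.3% of all genes were, and no member depleted, where 10.3% were.

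**Figure D4:**
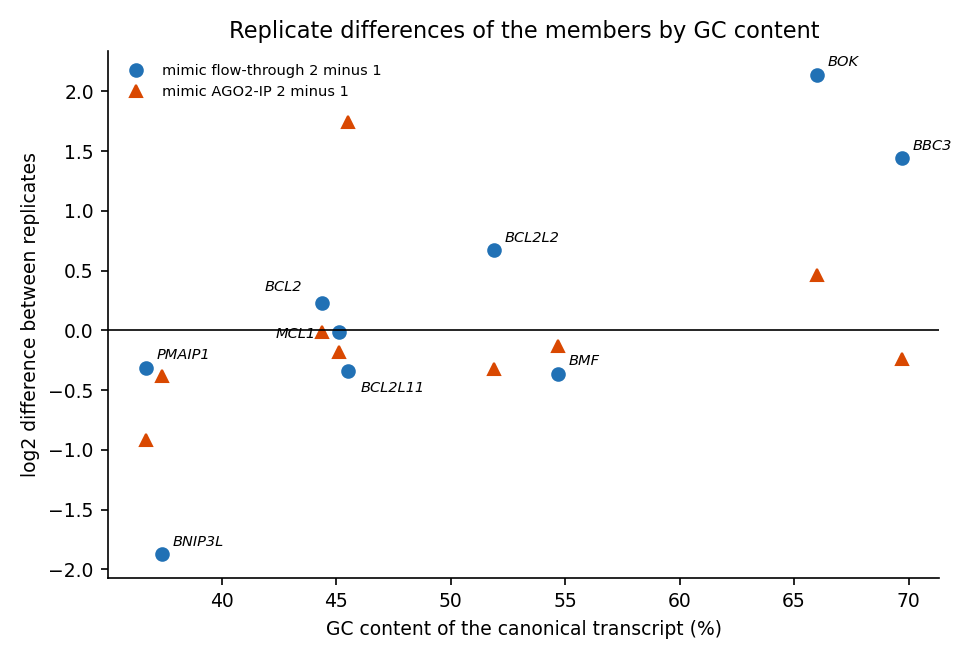
Log2 difference between replicate 2 and replicate 1 of the mimic flow-through (circles, labelled) and of the mimic AGO2-IP (triangles) for the 9 tested members, against the GC content of the canonical transcript. The flow-through difference is 2.14 for BOK and 1.44 for BBC3 at high GC and -1.87 for BNIP3L at low GC.

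The AGO2-IP of mimic cells was next set against the AGO2-IP of control cells, the comparison that asks which mRNAs came down with AGO2 once miR-99b-5p was added. It uses the mimic AGO2-IP libraries of the comparison above, rests on 1 control library and was not tested. MCL1, PMAIP1 and BNIP3L had mean log2 ratios of at least 1 (17.3% of all 11467 genes did), and BBC3, BMF and BOK had ratios of at most -1 (17.4% did). In both mimic libraries the ratio was at least 1 for MCL1 and BNIP3L (12.2% of all genes) and at most -1 for BBC3, BMF and BOK (12.2%).

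MCL1, with its 3 seed matches, had ratios of 1.39 and 1.20 in the single mimic libraries, and a mean of 1.04 with the GC trend removed. BMF, with its 1 match, had -1.42 and -1.56, and -1.07 with the GC trend removed. These 2 members thus lay on opposite sides, and they were the only tested members whose mean stayed past 1 under that correction. Both means were close to that cut-off, where the SD between the mimic libraries before correction was 0.134 for MCL1 and 0.097 for BMF. The same shift was present outside the pull-down, with GC-corrected flow-through ratios of 1.05 for MCL1 and -1.12 for BMF. PMAIP1 had 1.69 and 0.77, BNIP3L 1.49 and 1.10, BBC3 -1.06 and -1.32 and BOK -1.63 and -1.17. With the GC trend removed their means were 0.25 for PMAIP1, 0.36 for BNIP3L, -0.04 for BBC3 and -0.42 for BOK. BCL2L11 disagreed between the mimic libraries, at -1.24 and 0.50. BCL2 (0.50 and 0.48) and BCL2L2 (0.42 and 0.09) stayed within 0.50 of 0, beside a median of 0.02 over all genes.

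**Figure D5:**
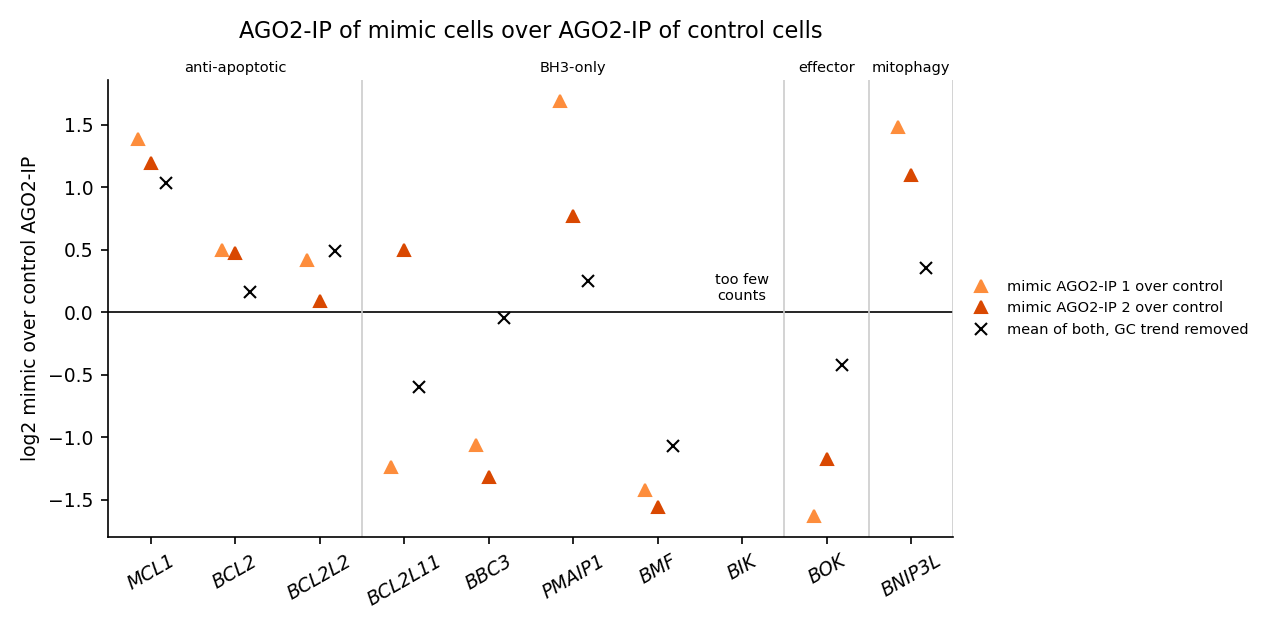
Log2 ratio of each mimic AGO2-IP library over the 1 control AGO2-IP library (triangles) and the mean of both after removal of the GC trend of each library (crosses). MCL1 stays above 1 and BMF below -1 in the crosses, at 1.04 and -1.07, while the crosses of PMAIP1, BBC3, BOK and BNIP3L lie between -0.42 and 0.36.

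The flow-through of mimic cells over that of control cells, which reflects the RNA outside the pull-down, gave a smaller range. BCL2 had a log2 ratio of 1.27, with 1.15 and 1.40 in the single libraries, and was the 1 member at 1 or more (10% of all 12254 genes were) and in both mimic libraries (2.8%). Both single values share 1 control library, which held only 55 counts of BCL2 and 45 of BMF. No member had a mean of at most -1 (10.2% did), nor a value that low in both libraries (3.35%). MCL1 had 0.95 and 0.96 in the single libraries, so it was higher with the mimic in both fractions. BMF had -0.77 and -1.10 and BCL2L11 -0.57 and -0.89, so that BMF was lower in both fractions. The replicates disagreed in sign for BBC3 (-0.70 and 0.77), BOK (-0.88 and 1.28) and BNIP3L (0.36 and -1.49). PMAIP1 had 0.57 and 0.28 and BCL2L2 0.28 and 0.97. Scaled by library size alone the median of all genes moved from 0.05 to 0.52, and MCL1 stood at 1.42 and BMF at -0.47. With the mitochondrially encoded genes left out as well, the median was -0.30, MCL1 had 0.60 and BMF -1.28.

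In mimic cells most other BCL2 family genes had negative values for AGO2-IP against flow-through. Of 13 other BCL2 family genes 9 were tested, none was called by edgeR without the block (0.245% of all genes were enriched and 0.413% depleted) and 3 had an unadjusted p under 0.05, as did 23.8% of all genes. Their median log2 fold change was -0.58, with both AGO2-IP libraries below both flow-through libraries for 6 (28.5% of all genes) and above for 1 (28.1%), BID, a BH3-only protein cut by caspase 8. BAD, a BH3-only protein held inactive by survival kinases, had 3.25 and 4.18 CPM in the AGO2-IP and 17.6 and 56.7 in the flow-through. Its log2 fold change was -3.50 (SE 0.854, adjusted p = 0.0676 from edgeR's test). BAD was called depleted by edgeR with the replicate block (adjusted p = 0.00528), as were 5.08% of all genes. PyDESeq2 also called it depleted (adjusted p = 0.000404), as it did 8.24% of all genes. BNIP3, the closest relative of BNIP3L, had 59.5 and 98.1 CPM against 343 and 199 CPM, or -1.77 on the log2 scale (SE 0.614, adjusted p = 0.132 from edgeR's test), and PyDESeq2 called it and BAX depleted as well. The difference between these genes and the 9 members was not tested.

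Of 11 genes that act on the members, all were tested and none was called by edgeR without the block, while 5 had an unadjusted p under 0.05, against 23.8% of all genes. PyDESeq2 called DYNLL2 enriched (adjusted p = 0.00524) and DYNLL1 (adjusted p = 0.0161) and TP73 (adjusted p = 0.0106) depleted. It called 6.46% of all genes enriched and 8.24% depleted. The light chains DYNLL1 and DYNLL2, which tether BIM and BMF, lay on opposite sides. DYNLL2 had 494 and 585 CPM in the mimic AGO2-IP against 130.1 and 103 in the flow-through, or 2.19 on the log2 scale (SE 0.593, adjusted p = 0.0824 from edgeR's test, 0.0319 with the replicate block). DYNLL1 had 29.4 and 31.9 CPM against 284 and 52.8, or -2.34 (SE 0.734, adjusted p = 0.109 from edgeR's test). The control ratios of these genes were 2.04 and -2.88. The ubiquitin enzymes of MCL1, HUWE1, FBXW7 and USP9X, stood at 0.78, 1.59 and 1.66 on the log2 scale, where adjusted p-values in edgeR's test were 0.147 to 0.444. TP73, a transcription factor, had -2.29 and was called depleted with the replicate block (adjusted p = 0.0408 from edgeR's test), as were 5.08% of all genes. FOXO3, which drives transcription of BCL2L11, had 0.83.

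The genes whose pattern over the 6 libraries was most like that of the most counted member of each class were found among 11160 protein-coding genes, by the root mean square difference of centred log2 CPM. For MCL1 these were NDUFS1 (0.142), CTPS1 (0.158) and EPRS1 (0.179). For PMAIP1 they were XPC (0.097), DTNBP1 (0.118) and CDKN2AIP (0.118). For BOK they were EBF4, FBLIM1 and SARDH, from 0.087 to 0.106, and for BNIP3L USP53, FAM76B and USF3, from 0.097 to 0.111. This likeness is a description over 6 libraries, of which the control libraries differ in composition. AGO2, the gene of the protein that was pulled down, had 0.63 on the log2 scale in mimic cells (adjusted p = 0.527 from edgeR's test).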

How the data were processed

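Per the labels and methods, the authors ran FastQC 0.11.9 and cutadapt 3.5 on paired-end reads, used STAR 2.7.11b with GRCh38 in 2-pass mode, and deposited its raw counts of read pairs per gene. The Ensembl release is not given in the sources used here. STAR counts only pairs on one place and one gene, so exons shared with other genes are lost. The unstranded column was used. Rows that name no gene (21.4% to 95.0% of pairs) were left out. Of 60708 identifiers 60507 matched GENCODE release 44, which gave names, exon lengths, GC content and transcript sequences.

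The mimic fractions were compared with edgeR 4.0.16 (glmQLFit, glmQLFTest, TMM normalization, Benjamini-Hochberg adjustment over all genes) in R 4.3.3, tested on simulated data. SE is the log2 fold change over the square root of F. PyDESeq2 0.5.4 was an alternative. Ratios against control are differences of TMM-normalized log2 CPM (prior count 2), without p-values. The lowess span of the GC correction was 0.2. The titles number the mimic libraries of both fractions as biological replicates 1 and 2, which was taken as a pairing, although a shared lysate is not stated. Same-numbered libraries deviated from their groups with Pearson's r = 0.324 (Spearman's rho 0.236) across 13078 genes, which are not independent. With 2 libraries a group, p-values rest on the spread between these libraries, and edgeR draws each gene's spread toward the trend over all genes tested. A member's SE therefore reflects other genes as well as its own libraries. For MCL1 the library pairs ran from 1.84 to 2.04, and its SE was 0.580. Alternatives were other normalizations, count filters, strand columns, the replicate block, GC correction, thinning to one depth and leaving out each mimic library, and, chosen after seeing the data, leaving out mitochondrially encoded genes together with scaling by library size alone. All 10 members are named, other genes from lists of the family and its regulators, and the 3 nearest patterns for the most counted member of each class. Members and lists were chosen with earlier results of these data known.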

Additional observations from a re-analysis of the deposited data

How the results depend on the processing

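The number of genes called enriched and depleted in the mimic AGO2-IP was 32 and 54. It was 13 and 33 with DESeq2's size factors, 9 and 35 with library size alone, 144 and 86 with a minimum of 10 counts, 419 and 204 with no count filter, 1 and 17 with strand column 3, 2 and 12 with strand column 4, and 14 and 34 with libraries thinned to one depth. It was 601 and 664 with the replicate block, 384 and 217 with the GC trend removed, 1740 and 1350 with both, and 845 and 1077 with PyDESeq2. Leaving out 1 mimic library gave 2 to 2476 enriched and 20 to 2527 depleted, the highest without the first flow-through library. The cause was not tested.

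Enriched members numbered 0 at first, 1 with a minimum of 10 counts and 1 with no filter (BCL2L11), 3 with the replicate block, 2 with the GC trend removed, 4 with both, 3 with PyDESeq2 and 0 to 4 with a library left out. Depleted members numbered 1 (BOK) with PyDESeq2 and 0 to 1 with a library left out. The replicate block changed the call of no other member. BNIP3L turned to -0.39 with the GC trend removed, to -0.38 with the block as well, and ran from -0.46 to 1.40 with a library left out. The difference of class medians, -1.01, became -1.98 with the GC trend removed and -1.97 with the block as well, and ran from -1.30 to -0.86 with a library left out.

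Of the ratios without a test, members at -1 or less in the control pair went from 1 to 0 with library size alone. In mimic over control AGO2-IP, the 3 members at 1 or more and the 3 at -1 or less each became 1 with the GC trend removed. In mimic over control flow-through, members at 1 or more went from 1 to 3 with library size alone, to 2 with the GC trend removed, to 0 with library size alone and mitochondrially encoded genes left out, and were 1 to 2 with a library left out. Members at -1 or less went from 0 to 1 with strand column 4, to 1 with the GC trend removed, to 2 with library size alone and mitochondrially encoded genes left out, and were 0 to 2 with a library left out. With 1 control library, no spread between control cultures is known, and BIK was limited by depth.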
